A study of Mus musculus with 16 samples.

Results

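The genes described here make, sense, import and export cholesterol, and they were followed in the sciatic nerve of mice after a crush injury. The set of 35 was named by function: 18 enzymes of the synthesis pathway, 2 enzymes that supply acetyl-CoA, 5 members of the sterol-sensing machinery, the sterol carrier Stard4, and 9 genes of uptake, endosomal exit, oxysterol formation and efflux. A gene was measured where a probe set of the array named that gene alone, and the brightest such probe set over the 16 arrays stood for it. This left 33 of the 35 members (17, 2, 5, 1 and 8 by role) among 18193 genes of the array, and all 33 were bright enough to be among the 14545 genes tested. Acat2 and Soat1 had no probe set of their own and were not analysed here.

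Cells build cholesterol from acetyl-CoA by way of mevalonate, squalene and lanosterol. When sterols in the endoplasmic reticulum are scarce, the escort protein Scap carries SREBP2 (Srebf2) to the Golgi, where the transcription factor is released and switches on nearly all the enzymes, while Insig proteins hold the complex back when sterols are plentiful. Sterol excess instead activates the LXR receptors (Nr1h3 among them), which switch on the exporters Abca1 and Abcg1 and the lipid carrier Apoe. In peripheral nerve the Schwann cell makes most of the cholesterol of its own myelin sheath, and after injury Schwann cells and macrophages take up the lipid of broken-down myelin.

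The study followed the distal stump of the sciatic nerve over time in 2 mouse strains, each 8 to 12 weeks old. C57BL/6 mice were wild type, and C57BL/6 OlaHsd-Wlds mice (WldS here) carried the mutation that delays the degeneration of severed axons. The left nerve was given a microcrush at mid-thigh and collected 3, 7 or 14 days later, or came from uninjured mice (day 0), with 56 mice per strain in all. Stumps were cleaned of connective tissue, cut to a 4 mm segment lying 1 to 5 mm beyond the lesion and pooled within a group, with 2 pools and 2 Affymetrix Mouse Genome 430 2.0 arrays per group. All groups except day 0 shared the crush. Both strains were labelled C57BL/6, WldS with the suffix OlaHsd, so the mutation and other differences between the strains cannot be told apart. The number of animals in a pool is not given in the sources used here, so p-values measure the spread between pools.

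Array medians lay between 6.42 and 6.49 in log2 signal. The 3′/5′ index is the mean log2 signal of 3′ control probe sets minus that of 5′ ones, and it rises when RNA is shortened. It stood between 1.63 and 2.46 on 14 arrays and was higher on the others. These read 3.81 for the first uninjured WldS pool (replicate 1) and 3.23 for the second WldS pool of day 14 (replicate 2). The median SD between pools ranged from 0.061 at C57BL/6 day 7 to 0.145 at WldS day 0. The nerve was recognisable by its markers: 7 measured genes of the myelinating Schwann cell averaged 12.48 in uninjured C57BL/6 and 12.42 in uninjured WldS nerve. Of 7 genes of muscle, the 4 tested averaged 6.61 in uninjured C57BL/6 and 6.90 in uninjured WldS nerve. They averaged between 5.86 and 6.25 in the injured groups, and genes under a level of 5.37 were not tested.

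Promoters of 29 of the 35 members were found in RefSeq sequence of the GRCm38.p6 mouse assembly, each window running from 250 bases before to 50 bases after the start of the gene. Those of Fdps, Fdft1, Sqle, Stard4, Abcg1 and Npc1 were not used here. A CCAAT box (CCAAT, the letters bound by NF-Y, a partner of SREBP), read on either strand, stood in 14 of the 15 synthesis promoters (93.3%), in 3 of 7 uptake and efflux promoters (42.9%) and in 41.1% of all 27025 promoters. The sterol response element, searched as TCACCCCAC, TCACGCCAC or TCACCCNAC, stood in the promoters of Hmgcs1 and Nsdhl, 2 of 15 synthesis promoters (13.3%) against 1.26% of all promoters and none of the other 14 members. The GC box (GGGCGG) was in 14 of the 15 synthesis promoters, in 4 of 7 uptake and efflux promoters (57.1%) in 38.2% of all and in 63.6% of the promoters of genes tested here. An E-box (CACGTG) was in 3 of 15 synthesis promoters (20.0%; Hsd17b7, Sc5d and Dhcr7) and in 3 of the other 14 (21.4%; Insig1, Scap and Abca1), against 8.09% of all. The LXR element, AGGTCA repeated with 4 bases between the copies and no mismatch, was in no member and in 0.0148% of all promoters. A match is a description of letters and not a site known to be bound.

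The promoters of 4 genes that the results turn on are shown, picked with their expression and motifs known, so they stand for their own genes and not for their groups: Hmgcs1 with the sterol element, Idi1 and Cyp51 as the enzymes whose course differed most between strains, and Abca1 as the exporter that rose most. The 250 bases before each start are given 5′ to 3′ on the strand of the gene, with CCAAT (or ATTGG, the same box on the other strand) and the sterol response element in capitals. Hmgcs1 lies on the plus strand at chr13:119690101-119690350 with 3 CCAAT boxes and 1 sterol response element, and Idi1 on the plus strand at chr13:8885356-8885605 with 2 CCAAT boxes. Cyp51 lies on the minus strand at chr5:4104698-4104947 with 1 CCAAT box, and Abca1 on the minus strand at chr4:53159896-53160145 with neither motif.
Hmgcs1: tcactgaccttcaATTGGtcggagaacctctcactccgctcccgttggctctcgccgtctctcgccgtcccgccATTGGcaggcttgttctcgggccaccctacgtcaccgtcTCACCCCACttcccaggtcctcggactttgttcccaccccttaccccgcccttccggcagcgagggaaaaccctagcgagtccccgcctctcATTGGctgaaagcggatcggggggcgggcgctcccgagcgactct
Idi1: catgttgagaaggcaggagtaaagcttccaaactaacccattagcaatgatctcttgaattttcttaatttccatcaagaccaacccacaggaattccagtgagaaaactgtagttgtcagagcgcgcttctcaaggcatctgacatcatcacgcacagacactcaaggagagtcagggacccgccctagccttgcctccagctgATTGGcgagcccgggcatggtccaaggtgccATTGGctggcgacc
Cyp51: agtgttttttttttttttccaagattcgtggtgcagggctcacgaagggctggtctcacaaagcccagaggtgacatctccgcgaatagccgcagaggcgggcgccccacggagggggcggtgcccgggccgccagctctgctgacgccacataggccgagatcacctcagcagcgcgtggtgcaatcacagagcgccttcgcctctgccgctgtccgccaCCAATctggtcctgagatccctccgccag
Abca1: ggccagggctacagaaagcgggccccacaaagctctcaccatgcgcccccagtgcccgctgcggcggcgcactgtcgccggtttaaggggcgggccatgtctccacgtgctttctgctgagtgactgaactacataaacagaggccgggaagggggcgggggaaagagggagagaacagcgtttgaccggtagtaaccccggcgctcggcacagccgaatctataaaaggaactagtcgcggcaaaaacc

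After crush the synthesis pathway fell almost as a whole in both strains, while the efflux genes Abca1 and Apoe rose. In C57BL/6 nerve 15 of the 17 measured synthesis enzymes were lower at day 3, 15 at day 7 and 14 at day 14, and none was higher. Called means an adjusted p under 0.05 in limma over all genes tested, and 18.4%, 16.4% and 16.7% of all genes were called lower on those days. The median log2 change of the enzymes was -2.01, -2.58 and -1.06, against a median over all genes of 0.02, 0.02 and -0.0047. In WldS nerve 15 of 17 were lower on each of the 3 days, against 15.2%, 13.3% and 8.56% of all genes, with medians of -1.77, -1.71 and -1.78. Of the 17, 14 were lower on every day in both strains (Pmvk, Mvd, Idi1, Fdps, Fdft1, Sqle, Lss, Cyp51, Tm7sf2, Msmo1, Nsdhl, Hsd17b7, Sc5d and Dhcr7), and Hmgcs1 was lower on all except C57BL/6 day 14. Mvk and Ebp were called on no day, which for Mvk holds for its brightest probe set only. Of these calls, those of Mvd and Dhcr7 at C57BL/6 day 14 and of Nsdhl at WldS day 14 were lost in at least 1 refit (another setting, or 1 array left out). With calls limited to changes of at least 2-fold, 10 enzymes were lower at C57BL/6 day 14 and 14 at WldS day 14, and 15 on each of the other days. All comparisons with day 0 within a strain share the same 2 uninjured arrays. In whole tissue, fewer cells of a type and less RNA per cell cannot be told apart.

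**Figure D1:**
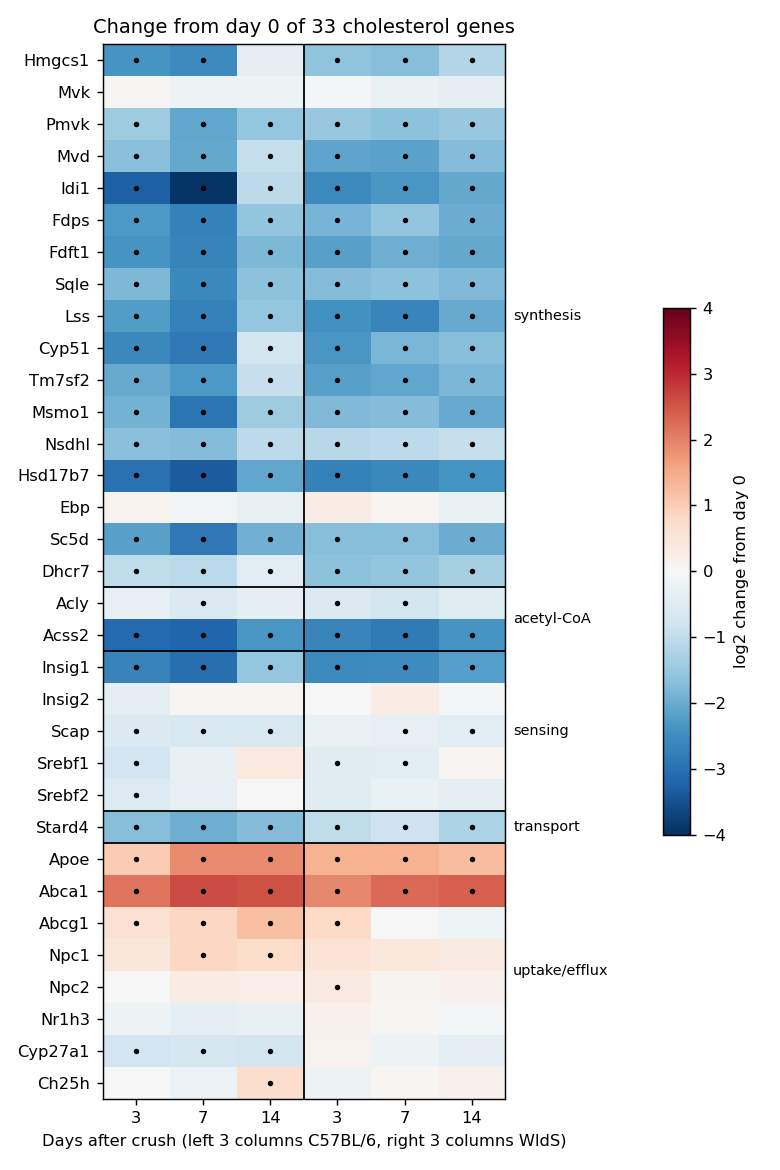
Heat map of the log2 change from day 0 of the 33 measured genes (rows, ordered by role) on days 3, 7 and 14 in C57BL/6 and WldS nerve (columns), with blue for lower, red for higher and a dot where the adjusted p was under 0.05. The synthesis rows are blue in both strains except Mvk and Ebp, and Abca1 and Apoe are red throughout.

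The first committed steps make mevalonate. Hmgcs1 joins acetyl-CoA units into HMG-CoA, and its probe set was the brightest of the enzymes, which does not rank their RNA levels. It read 13.88 and 13.97 (log2 signal of the 2 arrays) in uninjured C57BL/6 nerve, 11.70 and 11.40 at day 3, 11.50 and 11.27 at day 7, and 13.49 and 13.62 at day 14. The WldS arrays gave 14.21 and 14.04, 12.46 and 12.55, 12.42 and 12.41, and 12.74 and 13.16. Days 3 and 7 lay far below day 0 in both strains, and day 14 lay almost back at the uninjured level in C57BL/6. The log2 change at day 7 was -2.54 ± 0.15 (SE; adjusted p = 1.64e-08) in C57BL/6 and -1.71 (1.6e-06) in WldS. By day 14 it was -0.37 in C57BL/6, which was not called, and -1.18 ± 0.15 (7.79e-05) in WldS. All 5 probe sets of Hmgcs1 fell at C57BL/6 day 7 in value.

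Mvk, mevalonate kinase, read 7.56 and 7.53 in uninjured C57BL/6 nerve and 7.38 and 7.34 at day 7, a change that was not called. Its second probe set, nearly as bright (mean 7.23 against 7.47), gave log2 changes of -0.50, -0.94 and -0.74 in C57BL/6. In WldS that probe set gave -0.54, -0.73 and -0.78. Its value at C57BL/6 day 3 was among those called, so the absence of a call for Mvk holds for the first probe set only. Pmvk, the next kinase, read 9.76 and 9.70 at day 0 in C57BL/6, 8.31 and 8.31 at day 3, 7.61 and 7.71 at day 7, and 7.99 and 8.38 at day 14. Its WldS pools read 9.74 and 9.60, 8.08 and 8.22, 8.04 and 8.02, and 8.07 and 8.24. No injured pool overlapped the uninjured ones, and the change at day 14 was nearly the same in both strains (-1.54 and -1.51, each ± 0.13). Mvd, which decarboxylates mevalonate diphosphate, changed by -2.06 ± 0.22 at C57BL/6 day 7 and by -2.14 at WldS day 7.

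Idi1 is the isomerase that supplies the active isoprene unit. By the brightest probe sets it had the deepest fall of the 17 enzymes at C57BL/6 days 3 and 7. By the same probe sets Hsd17b7 was deeper at C57BL/6 day 14 and on all 3 days in WldS. Idi1 read 11.98 and 11.98 in uninjured C57BL/6 nerve, 8.66 and 8.73 at day 3, 8.18 and 7.93 at day 7, and 10.91 and 10.92 at day 14. In WldS it read 11.83 and 11.91, 9.37 and 9.25, 9.19 and 9.89, and 9.88 and 9.76. The C57BL/6 pools dropped to a trough at day 7 and climbed back most of the way, while the WldS pools dropped less far and stayed down. At C57BL/6 day 7 the log2 change was -3.92 ± 0.17 (adjusted p = 8.98e-10), which left 6.60% of the uninjured level. The changes in WldS were -2.56, -2.33 and -2.05 on days 3, 7 and 14 (adjusted p = 8.19e-08, 3.96e-07 and 1.83e-06).

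Fdps, which builds farnesyl diphosphate, read 9.43 and 9.56 at C57BL/6 day 0 and 6.98 and 6.61 at day 7. In uninjured WldS nerve it read 8.64 in replicate 1, the array with the index of 3.81, and 9.58 in replicate 2. Its change at day 7 was -2.70 ± 0.26 in C57BL/6 and -1.59 in WldS. Fdft1, squalene synthase and the entry to the sterol branch proper, read 10.61 and 10.76 at C57BL/6 day 0, 7.94 and 8.09 at day 7, and 8.68 and 9.06 at day 14. Its WldS readings were 10.22 and 10.62 at day 0, 8.40 and 8.52 at day 7, and 8.45 and 8.33 at day 14. The gene stayed well under its uninjured level to the last day in both strains, with changes of -1.81 in C57BL/6 and -2.03 in WldS (each ± 0.16).

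Sqle, squalene epoxidase and a rate-limiting step, read 11.04 and 11.20 at C57BL/6 day 0, 9.29 and 9.33 at day 3, 8.64 and 8.44 at day 7, and 9.45 and 9.54 at day 14. The matching WldS values were 10.65 and 11.02, 9.08 and 9.11, 8.99 and 9.40, and 9.18 and 8.94. Its lowest values were those of C57BL/6 day 7, where the change was -2.58 ± 0.16, against -1.64 in WldS. Lss, which closes squalene epoxide into lanosterol, changed by -2.69 ± 0.18 at C57BL/6 day 7 and by -2.63 at WldS day 7, and both changes were called.

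The enzymes that trim lanosterol to cholesterol fell with the earlier steps. Cyp51, which removes the first methyl group, read 9.99 and 10.21 in uninjured C57BL/6 nerve, 7.42 and 7.65 at day 3, 7.26 and 7.19 at day 7, and 9.30 and 9.45 at day 14. The WldS pools read 10.14 and 9.95, 7.70 and 7.70, 8.21 and 8.22, and 8.37 and 8.33. Its fall in C57BL/6 was -2.57, -2.87 and -0.73 ± 0.12 (adjusted p = 1.21e-09, 5.11e-10 and 0.000347), and in WldS -2.34, -1.83 and -1.70 (7.64e-09, 1.24e-07 and 3.18e-07). The day 7 pools of the strains were about 1 log2 unit apart, and at day 14 they were apart by as much in the opposite direction.

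Hsd17b7, the ketone reductase, read 11.06 and 11.02 at C57BL/6 day 0, 8.01 and 8.13 at day 3, 7.74 and 7.71 at day 7, and 8.79 and 9.16 at day 14. In WldS nerve it read 11.45 and 11.09, 8.52 and 8.64, 8.90 and 8.51, and 8.70 and 9.03. By this probe set its fall at day 7 was among the deepest of the pathway in both strains. It was -3.31 ± 0.17 (adjusted p = 3.8e-09) in C57BL/6 and -2.57 (1.24e-07) in WldS. The next brightest probe sets (means 8.31 and 7.52) gave -2.20 and -3.03 in C57BL/6, and only -1.22 and -1.56 in WldS. Sc5d, the desaturase, read 9.95 and 10.16, 7.75 and 8.04, 7.20 and 7.21, and 7.98 and 8.30 in C57BL/6, and 9.66 and 10.01, 8.12 and 8.14, 8.12 and 8.15, and 8.01 and 7.70 in WldS. By this probe set its C57BL/6 pools kept falling from day 3 to day 7, while the WldS pools of those days stood at the same level. A second probe set, nearly as bright (mean 8.01 against 8.41), gave no further fall. Its changes from day 0 in C57BL/6 were -3.52 at day 3 and -3.43 at day 7.

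Msmo1 and Nsdhl, which remove the remaining methyl groups with Hsd17b7, were lower at C57BL/6 day 7 by log2 changes of -2.91 ± 0.30 and -1.72 ± 0.18, and at WldS day 7 by -1.73 and -1.05. Both differed widely between the uninjured WldS pools, where the array with the index of 3.81 read 11.06 for Msmo1 against 12.13 in the other, and 9.60 for Nsdhl against 10.29. Tm7sf2, a sterol reductase, was lower at day 7 by -2.29 in C57BL/6 and -2.08 in WldS (each ± 0.20). Dhcr7, the last reductase of the pathway, read 9.43 and 9.30 at C57BL/6 day 0 and 8.41 and 8.17 at day 7. The WldS pools read 9.76 and 9.61 at day 0 and 8.01 and 8.18 at day 7. Dhcr7 thus had the smallest called fall of the pathway in C57BL/6 at day 7 (-1.08 ± 0.12) and a change of -1.59 in WldS.

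Ebp, the sterol isomerase, was the other enzyme called on no day. It read 9.32 and 9.59 at C57BL/6 day 0, 9.31 and 9.39 at day 7, and 9.20 and 9.40 then 9.44 and 9.32 in WldS. The day 7 and uninjured pools overlapped in both strains. The promoter windows of Mvk and Ebp each held a CCAAT box, as did those of the 12 enzymes that fell and had a promoter in the table.

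The falls ranked higher among all genes in WldS than in C57BL/6. In WldS nerve 11, 10 and 11 of the 17 enzymes stood among the 50 deepest falls of 14545 genes on days 3, 7 and 14, while in C57BL/6 the counts were 1, 2 and 0. Among the 100 deepest falls the counts were 14, 14 and 12 in WldS and 2, 10 and 1 in C57BL/6. The median change of the enzymes was nonetheless deeper in C57BL/6 on days 3 and 7. These places rest on the brightest probe set of each gene: Hsd17b7 was the 3rd deepest fall at WldS day 3 with a change of -2.69, while the next brightest probe sets of the gene gave -1.35 and -1.42.

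Acetyl-CoA supply split between its members. Acss2, which makes acetyl-CoA from acetate and is itself driven by SREBP, read 9.73 and 10.00 in uninjured C57BL/6 nerve, 6.94 and 6.59 at day 3, 6.64 and 6.73 at day 7, and 7.55 and 7.51 at day 14. Its WldS values were 10.51 and 9.99, 7.55 and 7.64, 7.27 and 7.55, and 7.85 and 7.92. Every injured pool lay more than a full log2 unit under every uninjured one. Its change at day 7 was -3.18 ± 0.17 (adjusted p = 6.36e-09), or 9.08-fold lower, in C57BL/6 and -2.84 (6.01e-08), or 7.16-fold lower, in WldS. With this probe set the latter was the deepest fall of any gene tested in that comparison, and a second probe set, nearly as bright, gave -2.65 in C57BL/6 and -1.78 in WldS. Acly, which makes acetyl-CoA from citrate, read 11.69 and 11.64 at C57BL/6 day 0 and 11.12 and 11.08 at day 7. Its change was -0.56 ± 0.18 there and -0.73 at WldS day 7, and its second probe set gave 0.13 in the WldS comparison. Neither call was kept in every refit.

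Among the sensing genes the feedback protein Insig1, itself a target of SREBP, moved like the enzymes. It read 9.31 and 9.70 in uninjured C57BL/6 nerve, 6.57 and 7.09 at day 3, 6.46 and 6.53 at day 7, and 7.74 and 8.15 at day 14. The WldS arrays gave 9.77 and 9.42, 6.87 and 7.21, 7.10 and 7.07, and 7.40 and 7.38. No injured pool reached an uninjured one, and the day 14 pools of C57BL/6 stood highest among the injured. The change at day 7 was -3.01 ± 0.20 (adjusted p = 4.15e-08) in C57BL/6 and -2.51 (5.88e-07) in WldS. Insig2, the second anchor protein, was called in no comparison with day 0.

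The transcription factors and their escort moved less. Srebf2 read 9.01 and 8.98 at C57BL/6 day 0 and 8.34 and 8.56 at day 3, a change of -0.55 ± 0.19 (adjusted p = 0.035). This was the only call against day 0 of its brightest probe set, and it was lost in at least 1 refit. A second, dimmer probe set of Srebf2 gave -0.56, -0.66 and -0.26 in C57BL/6 and -0.50, -0.54 and -0.73 in WldS. Scap was lower by -0.57, -0.64 and -0.65 (each ± 0.12) on the 3 days in C57BL/6. There the calls of days 7 and 14 were lost in at least 1 refit. In WldS Scap was lower by -0.33 and -0.41 on days 7 and 14, calls likewise lost in at least 1 refit. Srebf1, which encodes the SREBP of fatty acid synthesis, read 9.96 and 10.10 at C57BL/6 day 0, 9.33 and 9.17 at day 3, 9.66 and 9.78 at day 7, and 10.40 and 10.42 at day 14. The C57BL/6 pools of day 3 lay lowest and those of day 14 above the uninjured ones, with a change of -0.77 ± 0.15 at day 3 and a rise of 0.69 between days 7 and 14. In WldS the change was -0.49 at day 3 and -0.45 at day 7, and both WldS calls were lost in at least 1 refit. Its WldS change between days 7 and 14 was 0.52 ± 0.15 (adjusted p = 0.0534 in limma), which was not called.

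Stard4, a soluble carrier that moves sterol between membranes and is another SREBP target, read 10.07 and 10.12 in uninjured C57BL/6 nerve, 8.22 and 8.58 at day 3, 8.13 and 8.14 at day 7, and 8.46 and 8.24 at day 14. WldS pools read 9.40 and 9.80, 8.41 and 8.72, 8.86 and 8.67, and 8.48 and 8.22. It fell in every comparison with day 0, by -1.70, -1.96 and -1.75 ± 0.17 in C57BL/6 and by -1.03, -0.84 and -1.25 in WldS. Its C57BL/6 pools of days 7 and 14 stood close together, with a difference of 0.22 ± 0.17 (adjusted p = 0.675) that was not called.

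**Figure D2:**
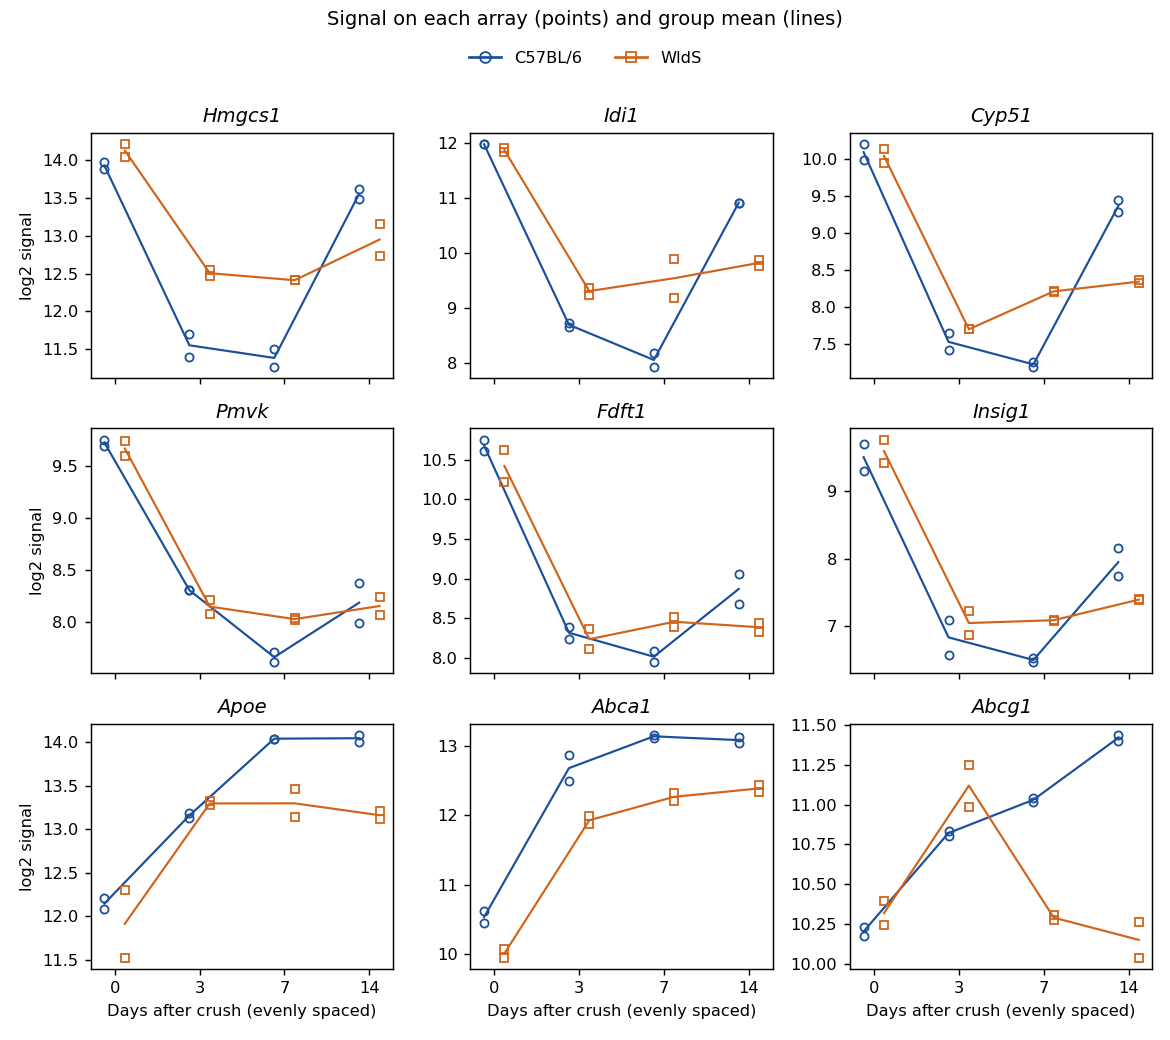
Log2 signal of 9 genes on each array (points) and group means (lines) at days 0, 3, 7 and 14 in C57BL/6 and WldS nerve, with the days evenly spaced. Idi1, Hmgcs1 and Cyp51 rose from day 7 to day 14 in C57BL/6 by 2.14 to 2.86 and were not called over that week in WldS, Pmvk and Fdft1 were still below their uninjured level at day 14 in both strains, and Abcg1 rose through day 14 in C57BL/6.

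The uptake and efflux genes took a different course from the enzymes. In C57BL/6 nerve 3, 4 and 5 of the 8 measured were higher on days 3, 7 and 14, and 1 was lower on each day. Of all genes 22.6%, 19.6% and 17.1% were called higher there, and 18.4%, 16.4% and 16.7% lower. In WldS 4, 2 and 2 were higher and none lower, against 20.8%, 21.9% and 12.7% of all genes higher and 15.2%, 13.3% and 8.56% lower. The count higher at WldS day 7 and the counts lower in C57BL/6 were near those shares. The median log2 changes were 0.24, 0.55 and 0.71 in C57BL/6 and 0.46, 0.10 and 0.17 in WldS. Of these 8 genes, Abca1 and Apoe were higher on all 3 days in both strains. With 1 uninjured C57BL/6 array left out, either replicate 1 or replicate 2, the count at C57BL/6 day 14 was 3. With calls limited to changes of at least 2-fold the counts were 2 at C57BL/6 day 7, 3 at day 14 and 2 at WldS day 3.

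Abca1, the transporter that loads cholesterol onto lipoproteins at the cell surface, rose most. It read 10.45 and 10.61 in uninjured C57BL/6 nerve, 12.49 and 12.87 at day 3, 13.16 and 13.12 at day 7, and 13.12 and 13.04 at day 14. The matching WldS values were 9.95 and 10.07, 11.98 and 11.87, 12.32 and 12.21, and 12.44 and 12.34. By this probe set both strains reached a plateau by day 7, and every WldS pool, uninjured or injured, lay under the C57BL/6 pools of its day. The rise at day 7 was 2.61 ± 0.13 (adjusted p = 2.78e-09), or 6.10-fold, in C57BL/6 and 2.26 (3.96e-08), or 4.79-fold, in WldS. A second, dimmer probe set (mean 7.72 against 12.00) gave 3.97 and 1.37 for these changes. It gave no plateau in C57BL/6, with -0.91 from day 7 to day 14.

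Apoe, the main lipid carrier of nerve, read 12.08 and 12.20 at C57BL/6 day 0, 13.13 and 13.18 at day 3, 14.04 and 14.04 at day 7, and 14.01 and 14.08 at day 14. The WldS pools read 11.52 and 12.30, 13.27 and 13.32, 13.14 and 13.46, and 13.21 and 13.11. Both strains stood at a like level at day 3, after which the C57BL/6 pools went on to 14 and the WldS pools did not. The rise in C57BL/6 was 1.01, 1.89 and 1.90 ± 0.19 (adjusted p = 0.000566, 2.64e-06 and 3.68e-06) and reached 3.72-fold at day 7. In WldS it was 1.38, 1.38 and 1.25 (5.78e-05, 8.38e-05 and 0.000327), over an uninjured group whose 2 pools differed by more than the SE of any of these changes.

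Abcg1, the transporter that hands cholesterol to mature lipoproteins, separated the strains. It read 10.18 and 10.23 at C57BL/6 day 0, 10.81 and 10.84 at day 3, 11.04 and 11.02 at day 7, and 11.40 and 11.44 at day 14. In WldS it read 10.24 and 10.39, 11.25 and 10.99, 10.27 and 10.31, and 10.04 and 10.26. The C57BL/6 pools climbed from day to day, while the WldS pools rose at day 3 and were back at the uninjured level at day 7. The C57BL/6 rise was 0.62, 0.83 and 1.22 ± 0.12 (adjusted p = 0.000673, 7.68e-05 and 2.9e-06). The WldS rise was 0.80 at day 3 (0.000111), followed by a fall from day 3 to day 7 of -0.83 ± 0.12 (0.000696). A second, dimmer probe set gave 0.07, 0.23 and 0.61 in C57BL/6, of which the day 14 value was called.

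By their brightest probe sets the remaining genes of this group changed less. Npc1, which releases cholesterol from endosomes, read 9.24 and 9.06 at C57BL/6 day 0 and 10.02 and 9.94 at day 7. The uninjured WldS pools read 8.14, on the array with the index of 3.81, and 9.07. The rise was 0.83 ± 0.24 at day 7 (adjusted p = 0.0136) and 0.74 at day 14 (0.0273) in C57BL/6, both calls being lost in at least 1 refit, and no WldS change from day 0 was called. Npc2, its soluble partner, was higher at WldS day 3 by 0.36 ± 0.13 (0.0403), a call likewise lost in a refit. The next brightest probe set of Npc2 (mean 12.63 against 13.39) gave 0.38, 0.76 and 0.75 in C57BL/6. In WldS that probe set gave 0.96, 0.67 and 0.49. A dimmer probe set (mean 9.64) gave -0.23, 0.24 and 0.29 in C57BL/6 and 0.27, -0.11 and -0.26 in WldS. The size of the Npc2 change thus depended on the probe set.

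A pair of oxysterol-forming enzymes and the receptor completed the group. Cyp27a1, which makes 27-hydroxycholesterol, read 9.17 and 8.96 at C57BL/6 day 0, 8.26 and 8.33 at day 3, 8.17 and 8.53 at day 7, and 8.27 and 8.40 at day 14. In WldS it read 8.63 and 8.91, 8.95 and 8.85, 8.58 and 8.58, and 8.43 and 8.38. It fell in C57BL/6 by -0.76, -0.71 and -0.73 ± 0.14 and was called on no day in WldS. Ch25h, which makes 25-hydroxycholesterol, read 7.54 and 7.33 at C57BL/6 day 0, 7.10 and 7.31 at day 7, and 8.37 and 7.88 at day 14. Its change at C57BL/6 day 14 was 0.69 ± 0.22 (adjusted p = 0.0269), a call that was lost in at least 1 refit. Nr1h3, the LXR alpha receptor, read between 6.11 and 6.76 on all 16 arrays and was not called.

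From day 7 to day 14 the strains parted. In C57BL/6 nerve 15 of the 17 synthesis enzymes rose, all except Mvk and Ebp, against 2.48% of all genes called higher. Their log2 rises ran from 0.52 (Pmvk) to 2.86 (Idi1), and the median over the 17 was 1.11 against -0.03 over all genes. The largest were those of Idi1 (2.86 ± 0.17; adjusted p = 1.25e-07), Hmgcs1 (2.17 ± 0.15; 5.64e-07) and Cyp51 (2.14 ± 0.12; 5.64e-08), which were the 15th, 27th and 29th largest rises among 14545 genes. Acss2 (0.84), Insig1 (1.45), Srebf1 (0.69) and Ch25h (0.92) rose as well, so that 19 of the 33 members were higher and none lower. Of these 19 calls 8 were kept in every refit, and those of Acss2, Srebf1 and Ch25h were not. In WldS nerve limma called none of the 33 members over the same week, against 5.23% of all genes in either direction, while 8 of the 33 had an unadjusted p under 0.05. The median over the 17 enzymes in WldS was 0.13, and Srebf1 had a value of 0.52 there that was not called. The C57BL/6 count fell to 9 without C57BL/6 day 7 replicate 1, to 10 without day 7 replicate 2, to 12 without day 14 replicate 1 and to 8 without day 14 replicate 2. The WldS count was 1 without WldS day 7 replicate 2 or without day 14 replicate 1, and reached 2 after quantile or cyclic loess normalization.

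Expressed as the part of the day 7 fall that was regained on the log2 scale, the 15 enzymes ranged in C57BL/6 from 25.4% (Pmvk) to 85.4% (Hmgcs1), with a median of 43.0%. Cyp51 had regained 74.6%, Idi1 72.9%, Dhcr7 61.9% and Tm7sf2 59.2%. In WldS the same quantity ran from -25.1% to 31.3%, with a median of 7.69%. The sterol carrier Stard4 had regained 11.0% in C57BL/6, less than any of the 15 enzymes.

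**Figure D3:**
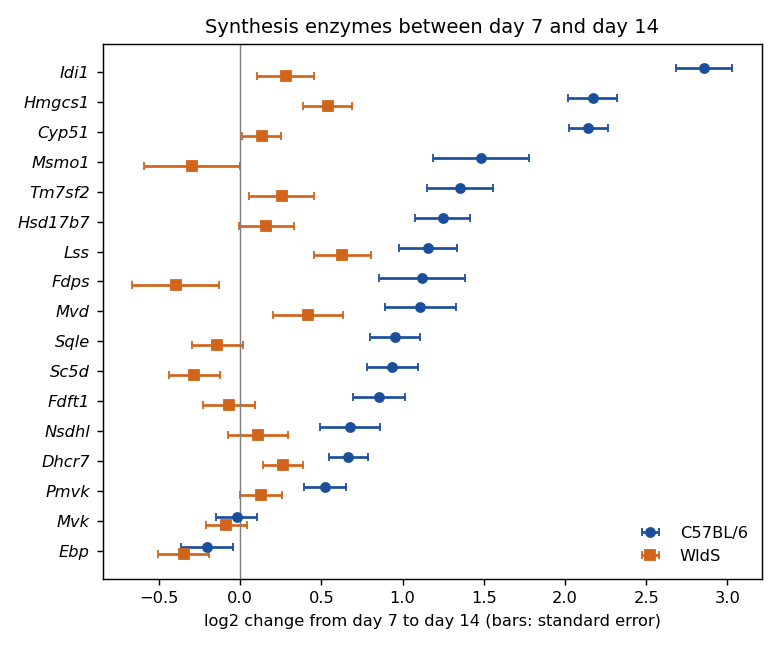
Log2 change from day 7 to day 14 of the 17 measured synthesis enzymes in C57BL/6 and WldS nerve, with bars for the SE of the fitted change (2 arrays per group). The C57BL/6 changes reach 2.86 (Idi1), while those of WldS lie between -0.40 and 0.63.

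The difference between the strains in this change was tested directly, in a comparison that uses no uninjured array and was chosen after the data had been seen. The WldS change minus the C57BL/6 change was called for 6 of the 33 members, all lower, against 0.914% of all genes lower. These were Idi1 (-2.58 ± 0.24; adjusted p = 3.82e-05), Cyp51 (-2.01 ± 0.17; 1.04e-05), Hmgcs1 (-1.63 ± 0.21; 0.000602), Sc5d (-1.22 ± 0.22; 0.00954), Sqle (-1.09 ± 0.22; 0.0194) and Hsd17b7 (-1.08 ± 0.24; 0.0346). Each of the 17 enzymes had a negative value, and the median was -1.08 against 0.0065 over all genes. Idi1, Cyp51 and Hmgcs1 kept the call in each of the 8 refits with 1 array left out and in 12 other settings. The count was 3 without C57BL/6 day 7 replicate 2 or without C57BL/6 day 14 replicate 2.

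From day 3 to day 7 the C57BL/6 pools fell further for Pmvk (-0.64), Idi1 (-0.64), Sqle (-0.77), Msmo1 (-1.02) and Sc5d (-0.69), which makes 5 of 17 enzymes against 10.7% of all genes lower. The other 12 had negative values that were not called. Of the 5 calls that of Pmvk was kept in every refit, although its change was under 2-fold. The second brightest probe set of Sc5d gave 0.0852 for this step. In WldS none of the 17 fell, against 3.58% of all genes, and Cyp51 rose by 0.51 ± 0.12, against 3.04% of all genes higher, a call lost in at least 1 refit. The difference between strains in this step was not tested.

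The strains were then set side by side at each day. Uninjured, none of the 33 members was called between strains in limma, 6 had an unadjusted p under 0.05, and 0.227% of all genes were called. Without WldS day 0 replicate 2, which leaves the array with the index of 3.81 alone in its group, 10 members were called. At day 3, 5 members differed, 4 of them higher in WldS and 1 lower, against 9.44% of all genes (4.82% higher and 4.62% lower). At day 7, 12 differed, 8 higher and 4 lower, against 6.83% of all genes (3.86% and 2.97%). At day 14, 8 differed, all of them lower in WldS, against 6.46% of all genes (3.55% lower).

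At day 3 Hmgcs1 was higher in WldS by 0.95 ± 0.15 (adjusted p = 0.000777), a call kept in every refit, although the difference was under 2-fold. Idi1 (0.61), Acss2 (0.83) and Cyp27a1 (0.60) were higher in WldS too, and Abca1 was lower (-0.75). These 4 calls were not kept in every refit: the count was 3 whichever of the 4 arrays of day 3 was left out, and 0 with a 2-fold limit.

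At day 7 the synthesis genes Hmgcs1 (1.03), Idi1 (1.49), Cyp51 (0.99), Sqle (0.65), Hsd17b7 (0.98) and Sc5d (0.93) were higher in WldS, as were Acss2 (0.72) and Stard4 (0.63). The exporters and handlers Apoe (-0.74), Abca1 (-0.87), Abcg1 (-0.74) and Npc1 (-0.94) were lower there. At this day the median difference was 0.44 over the 17 enzymes and -0.48 over the 8 uptake and efflux genes, against 0.0021 over all genes. Hmgcs1, Idi1, Sc5d and Abca1 kept the call in every refit, while for Cyp51, Hsd17b7 and Abcg1 the refit with the second brightest probe set lost it. With a 2-fold limit 2 calls were left, those of Hmgcs1 and Idi1. Without C57BL/6 day 7 replicate 1 or without replicate 2, 7 members were called.

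By day 14 Hmgcs1, Idi1 and Cyp51 had changed sides. Hmgcs1 (-0.61), Idi1 (-1.09), Cyp51 (-1.02) and Dhcr7 (-0.60) were lower in WldS, together with Apoe (-0.88), Abca1 (-0.70), Abcg1 (-1.27) and Npc1 (-0.92). The median difference was -0.44 over the enzymes and -0.47 over the uptake and efflux genes, against 0.02 over all genes. The Abcg1 difference (adjusted p = 3.04e-05) was kept in every refit, and those of Idi1 and Cyp51 in all but the refit with the second brightest probe set. With a 2-fold limit these 3 calls were left. The count was 4 without C57BL/6 day 14 replicate 1 or replicate 2 and 5 without WldS day 14 replicate 2, the array with the index of 3.23.

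The change from day 0 itself differed between strains for 2 of the 33 members at day 3, 7 at day 7 and 3 at day 14, against 6.16%, 4.11% and 1.58% of all genes. At day 7 the fall was shallower in WldS for Idi1 (difference 1.59 ± 0.24; adjusted p = 0.00194), Sc5d (1.15; 0.0101), Cyp51 (1.04; 0.00316), Stard4 (1.13; 0.0152), Sqle (0.94; 0.0276) and Hmgcs1 (0.83; 0.043), and Abcg1 was -0.86 ± 0.17 (0.0105). At day 14 Abcg1 (-1.38; 0.00103), Cyp51 (-0.97; 0.0122) and Dhcr7 (-0.91; 0.0156) were lower in WldS. At day 3 Cyp27a1 (0.89; 0.0134) and Dhcr7 (-0.63; 0.0448) differed. Abca1 was not called by its brightest probe set (-0.35 at day 7 and -0.17 at day 14). Its dimmer probe sets gave -2.60 and -2.36 at day 7, and -2.04 and -1.04 at day 14. Idi1 and Sc5d at day 7 kept the call in every refit, and no interaction of day 3 or day 14 did. Dropping WldS day 0 replicate 2 gave counts of 5, 11 and 5 on the 3 days, and dropping WldS day 0 replicate 1 gave 0 at day 3. Dropping C57BL/6 day 0 replicate 1 gave 0, 4 and 1.

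Markers of other cells moved over the same days. The 7 tested genes of the repair Schwann cell averaged 7.0, 10.4, 10.0 and 9.4 in C57BL/6 at days 0, 3, 7 and 14. In WldS they averaged 6.8, 7.7, 8.9 and 9.2. The 3 tested genes of axons averaged 8.4, 7.2, 6.9 and 6.6 in C57BL/6 and 8.0, 7.1, 7.0 and 6.8 in WldS. The 7 measured myelin genes averaged 12.48, 10.13, 10.72 and 12.23 in C57BL/6 at days 0, 3, 7 and 14 and 12.42, 11.63, 11.84 and 12.08 in WldS. From day 7 to day 14, 5 of the 7 myelin genes rose in C57BL/6, against 2.48% of all genes higher. In WldS 1 rose, against 5.23% of all genes called in either direction. The difference between strains was called for 4, among them Ncmap (-4.10) and Mbp (-1.81), both myelin proteins, against 0.914% of all genes lower. The 17 enzymes averaged 10.29, 8.43, 8.02 and 9.14 in C57BL/6 and 10.25, 8.53, 8.58 and 8.66 in WldS. At day 3 the enzyme and myelin lists thus parted in WldS, where the enzymes averaged nearly as low as in C57BL/6 and the myelin genes stood higher. The part of Schwann cell state or number in these results was not tested.

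The 12 macrophage genes averaged 9.67, 11.47, 10.95 and 10.53 in C57BL/6 and 9.44, 11.60, 10.67 and 10.06 in WldS. At day 3, 11 of 12 were called higher in each strain, against 22.6% of all genes in C57BL/6 and 20.8% in WldS. Between the strains, 3 of the 12 were lower and 1 higher in WldS at day 7, with a median difference of -0.35. Of all genes 2.97% were lower and 3.86% higher there. At day 14, 5 were lower and 1 higher, with a median of -0.58, against 6.46% of all genes in either direction (3.55% lower). Abca1, Apoe, Abcg1 and Npc1 were lower in WldS on these days too. At day 3 Abca1 was also lower in WldS (-0.75), where the macrophage genes averaged 11.60 against 11.47 in C57BL/6. The 8 adipocyte genes, from fat that adheres to nerve, averaged 10.06, 8.74, 8.60 and 8.79 in C57BL/6 and 9.71, 8.99, 8.78 and 9.03 in WldS. The numbers that fell were 5, 8 and 7 in C57BL/6, against 18.4%, 16.4% and 16.7% of all genes lower. In WldS they were 3, 6 and 3, against 15.2%, 13.3% and 8.56%. None of the adipocyte genes was called higher from day 7 to day 14 in C57BL/6, where 2.48% of all genes were. The part of macrophages and of adipose tissue in the results was not tested.

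**Figure D4:**
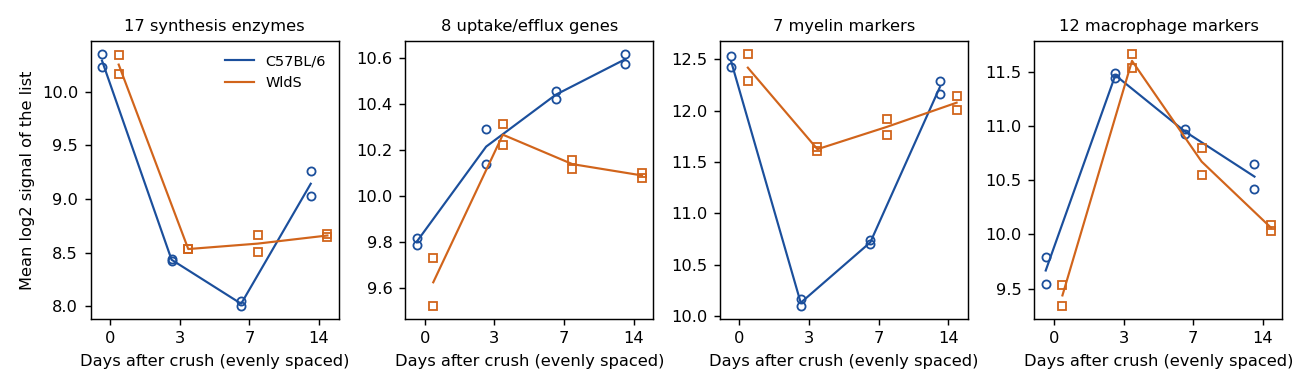
Mean log2 signal per array of the 17 synthesis enzymes, 8 uptake and efflux genes, 7 myelin markers and 12 macrophage markers, at days 0, 3, 7 and 14 in C57BL/6 and WldS nerve with the days evenly spaced. The enzymes fell to 8.02 at C57BL/6 day 7 and rose to 9.14 at day 14, while in WldS they stayed between 8.53 and 8.66 after injury and the myelin markers between 11.63 and 12.08.

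Neighbouring pathways were read from lists of their own. Of 12 genes of fatty acid synthesis under SREBP1, 10, 6 and 6 fell and 0, 0 and 1 rose on the 3 days in C57BL/6, against 18.4%, 16.4% and 16.7% of all genes lower. In WldS 8, 6 and 4 fell and 0, 0 and 1 rose, against 15.2%, 13.3% and 8.56% lower. Their median changes were -1.31, -0.79 and -0.45 in C57BL/6. Elovl6, which lengthens palmitate, changed by -2.81 and -3.48 at days 3 and 7 in C57BL/6 and by -1.84 and -1.78 in WldS. It regained 2.49 from day 7 to day 14 in C57BL/6, and the strain difference in that change was -2.31. Thrsp, a regulator of lipogenesis, changed by -2.39, -2.70 and -2.03 in C57BL/6. Fasn, fatty acid synthase, changed by -1.75, -1.45 and -0.81, and Acaca, which makes malonyl-CoA, by -1.47, -1.31 and -0.64.

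Genes that spend or receive the products of the pathway were read next. Of 7 measured genes of isoprenoid use, 2, 2 and 1 fell in each strain and 1 rose, at C57BL/6 day 3, beside 18.4%, 16.4% and 16.7% of all genes lower in C57BL/6 and 15.2%, 13.3% and 8.56% in WldS. Fntb, a farnesyltransferase subunit, changed by -1.43, -1.52 and -1.07 in C57BL/6 and by -0.81, -0.87 and -0.79 in WldS. Of 12 genes of lipoprotein handling, 3, 4 and 2 rose in C57BL/6 and 6, 4 and 1 in WldS, beside 22.6%, 19.6% and 17.1% of all genes higher in C57BL/6 and 20.8%, 21.9% and 12.7% in WldS. In the same list 2, 1 and 1 fell in C57BL/6 and 1, 1 and 0 in WldS. Lipa, the lysosomal lipase that frees cholesterol from its esters, rose by 1.57, 0.89 and 0.81 in C57BL/6 and by 1.14 and 0.50 at days 3 and 7 in WldS. Nceh1, which cleaves stored cholesterol ester, rose by 1.35 and 0.98 at days 7 and 14 in C57BL/6 and was called on no day in WldS, where it was lower than in C57BL/6 by -1.26 at day 7 and -0.77 at day 14. Vldlr, a lipoprotein receptor, fell by 1.13 at C57BL/6 day 3 and by 1.23 at WldS day 3.

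LXR partners and other sterol regulators gave small counts. The shares of all genes called higher and called lower in the paragraph before hold for these lists too. Of 7 measured LXR partners and targets, 1, 3 and 3 rose and 2, 0 and 1 fell in C57BL/6, and 3, 2 and 2 rose and 1, 2 and 1 fell in WldS. Mylip, which sends the LDL receptor for degradation, rose by 1.04 and 0.78 at days 7 and 14 in C57BL/6 and by 0.64, 0.89 and 0.82 in WldS. Lpcat3, which remodels phospholipids, rose by 0.40, 0.47 and 0.49 in C57BL/6 and by 1.00, 0.84 and 0.48 in WldS. Of 8 other sterol regulators, 2, 3 and 4 rose in C57BL/6 and 1, 2 and 1 in WldS, and 2 fell on each day in each strain. Osbpl1a, an oxysterol-binding protein, changed by -1.46, -1.35 and -0.43 in C57BL/6 and regained 0.92 from day 7 to day 14.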

How the data were processed

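Each array was hybridised to RNA of pooled nerve stumps. The deposited values were log2 signals of 45101 probe sets. Per the submitters' processing notes, the software was GCOS 1.4, RMA, limma and Partek, with no step assigned to any of them. The genome build is not given in the sources used here, and probe sets were named from the platform's probe table (64 control, 34945 with 1 symbol, 932 with several, 9160 with none). The brightest probe set of a symbol stood for each of 18193 genes, and 14545 above the 30th percentile (log2 5.37) were tested.

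A model of 8 group means was fitted to the 16 arrays in limma 3.58.1 (R 4.3.3), with 8 residual and 5.82 prior degrees of freedom and 18 contrasts. P-values were two-sided and adjusted by Benjamini-Hochberg within each contrast, and a gene was called under 0.05. The code was tested on simulated data. With 2 arrays per group, the number of arrays limits the precision. All members may be named. Of each other list, up to 4 called members with the largest change in the contrast described may be named, and any other was chosen after its values were seen. Members and lists were chosen with earlier results of these data known, and the contrast of strains between days 7 and 14 was added after the data were seen. Replicate numbers did not pair the arrays: over 28 pairs of groups, deviations of same-numbered arrays correlated between -0.58 and 0.19. Alternatives were other probe sets, dim filters, normalizations and priors, a replicate block, the 3′/5′ index as a covariate or without the 2 arrays of high index, only the arrays compared, a 2-fold limit, and each array left out.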

Additional observations from a re-analysis of the deposited data

Results flagged for a closer look

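The following values are listed because the change from day 0 differed between the strains by the interaction term of the limma model (WldS change minus C57BL/6 change, log2). At day 3, 2 of 33 members were called, a share near the 6.16% of all genes, and none of the calls of days 3 and 14 was kept in every refit. At day 3 the term was 0.89 for Cyp27a1, the sterol 27-hydroxylase, and -0.63 for Dhcr7, the last reductase of synthesis. At day 7 it was 1.59 for Idi1, 1.15 for Sc5d, 1.13 for Stard4, 1.04 for Cyp51, 0.94 for Sqle and 0.83 for Hmgcs1, each of which had fallen less in WldS, and -0.86 for the exporter Abcg1. At day 14 it was -1.38 for Abcg1, -0.97 for Cyp51 and -0.91 for Dhcr7. These terms rest on the brightest probe set of each gene. Abca1 was not called that way, but its dimmer probe sets gave -2.60 and -2.36 at day 7.

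The change from day 7 to day 14 also differed between the strains by a term of the same kind, chosen after the data were seen. The term was -2.58 for Idi1, -2.01 for Cyp51, -1.63 for Hmgcs1, -1.22 for Sc5d, -1.09 for Sqle and -1.08 for Hsd17b7, each of which rose in C57BL/6 and was not called in WldS. Cyp51 thus had a positive interaction at day 7 and a negative one at day 14.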

How the results depend on the processing

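With 1 array left out, the count of synthesis enzymes that fell ranged over 15 to 15 at C57BL/6 days 3 and 7, 12 to 15 at C57BL/6 day 14, 15 to 15 at WldS day 3, and 15 to 16 at WldS days 7 and 14. Higher uptake and efflux genes then ranged over 3 to 4 at C57BL/6 day 14, enzymes rising from day 7 to day 14 over 8 to 12 in C57BL/6 and 0 to 1 in WldS, and members differing between strains over 0 to 10, 3 to 3, 7 to 10 and 4 to 7 on days 0, 3, 7 and 14. Members with an interaction ranged over 0 to 5, 4 to 11 and 1 to 5 on days 3, 7 and 14, and with a strain difference from day 7 to day 14 over 3 to 7. A 2-fold limit gave 10 enzymes lower at C57BL/6 day 14 in place of 14, 2 and 3 higher uptake and efflux genes at C57BL/6 days 7 and 14 and 2 at WldS day 3, 9 enzymes rising in C57BL/6, 0, 2 and 3 members differing on days 3, 7 and 14, and 0, 4 and 1 interactions. The day 3 interactions numbered 4 with the second brightest or the mean probe set, and 1 with the replicate block, without the 2 arrays of high index or with only the arrays compared. The second brightest probe set gave 2 members differing at day 3, and it turned the sign for Mvk at C57BL/6 day 3 (-0.50), Acly at WldS days 3 and 7 (0.44 and 0.13), Scap at WldS day 14 (0.0194) and Sc5d from day 3 to day 7 in C57BL/6 (0.0852). The index covariate gave 5 interactions at day 14 and 10 strain differences from day 7 to day 14. Enzymes rising in WldS numbered 2 after quantile or cyclic loess normalization and 1 with an intensity trend and robust prior. The replicate block left 14 enzymes rising in C57BL/6. The cause of these shifts was not tested, apart from fewer arrays or a stricter limit.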
